A study of Mus musculus with 3 samples.

Results

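The genes described here, 10 of 21829 protein-coding genes, belong to the myeloid lineage and were followed in the chromatin of old blood stem cells. They were chosen by name and role. The transcription factor genes were Spi1, Cebpa, Cebpb, Cebpd, Cebpe, Gfi1 and Irf8, and the granule protein genes were Mpo, Elane and Ctsg. Fragments were counted over each promoter (1 kb on each side of the start), over each gene body with 2 kb upstream, and over the open sites within 50 kb of the start. The cells were long-term hematopoietic stem cells (LT-HSCs), sorted by flow cytometry from c-Kit-enriched bone marrow of 24-month-old female wild-type C57BL/6 mice as Lineage-, Sca-1+, c-Kit+, CD150+, CD48- and CD34-. A single pool gave an ATAC, a gene expression and an antibody library by DOGMA-seq, a method that gives each cell an accessibility, an RNA and a surface protein readout. The gene expression matrix was not analysed here, so the values below describe chromatin and not RNA.

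PU.1, the ETS-family protein encoded by Spi1, and the C/EBP family are the central factors of myeloid development. PU.1 acts in monocytes, granulocytes and B cells, C/EBPα is needed to form granulocyte and monocyte progenitors, and Gfi1 and Irf8 favour the granulocyte and the monocyte fate, respectively. Mpo, Elane and Ctsg encode proteins of the primary granules, which are made in granulocyte and monocyte progenitors.

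The antibody table held 3724 of 4369 called cells, and 3629 of them carried 10 or more tags over the 12 antibodies and were kept. They held 38498362 nuclear fragments, with a median of 10287 per cell (range 3853 to 45069) and a median of 29 antibody tags. With 1 pool there was no spread between samples, so no difference was tested. All intervals are exact 95% intervals and cover counting error only. A cell without a fragment at a promoter was not shown to be closed there, since each cell was read only in part. The 10 stem cell markers had a median of 461.5 promoter fragments, against medians of 48 for 7 B cell genes and 25 for 7 T cell genes.

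Next to the starts, the CpG ratio was higher in 4 factor genes than in the 3 granule genes. RefSeq promoter sequence (GRCm38) was at hand for 7 members, and not for Spi1, Cebpd and Cebpe. Over the 250 bases before the RefSeq start, the observed over expected CpG ratio was 1.03 for Irf8, 0.985 for Cebpb, 0.801 for Cebpa and 0.594 for Gfi1, against a median of 0.564 over 16510 promoters. It was 0.470 for Ctsg, 0.216 for Elane and 0.0913 for Mpo. The 4 factor promoters were thus above the median and the 3 granule promoters below it, but Gfi1 (percentile 52.4) and Ctsg (percentile 43.6) lay close to it. The GC share did not divide them in this way, with 59.2% for both Gfi1 and Mpo. At Mpo, 203 of the 250 bases lie at or downstream of the annotated start used for the fragment counts. Each window was searched on both strands for 6 motifs, which could share bases. The C/EBP motif was TTGCNNAA, which 8.92% of all promoters held. The PU.1 motif was GAGGAAGT, which 2.29% held. The motif of other ETS factors was CCGGAAGT, which 4.10% held. For RUNX factors the letters TGTGGT were searched, and 12.3% of promoters held them. For GATA factors the letters AGATAA were searched, and 8.81% held them. For AP-1 the letters TGANTCA were searched, and 6.09% held them. A match is a description of the letters and not a bound site. Cebpa, Cebpb and Irf8 held no match, Gfi1 held 1 C/EBP match, Mpo and Elane held 1 PU.1 match each, and Ctsg held 1 RUNX match. The promoters of 2 factor genes and the 3 granule genes are shown on the strand of the gene, ending at the base before the annotated gene start. Motif matches are in capitals (a match on the other strand appears as its reverse complement). The ratios above cover all 250 bases searched. For Elane and Mpo only 185 and 47 of these bases are shown, since their RefSeq starts lie downstream of the annotated ones. They lie at chr7:35119043-35119292 (Cebpa, plus strand), chr8:120736108-120736357 (Irf8, plus strand), chr10:79886062-79886246 (Elane, plus strand), chr11:87793534-87793580 (Mpo, plus strand) and chr14:56102575-56102824 (Ctsg, minus strand).
Cebpa: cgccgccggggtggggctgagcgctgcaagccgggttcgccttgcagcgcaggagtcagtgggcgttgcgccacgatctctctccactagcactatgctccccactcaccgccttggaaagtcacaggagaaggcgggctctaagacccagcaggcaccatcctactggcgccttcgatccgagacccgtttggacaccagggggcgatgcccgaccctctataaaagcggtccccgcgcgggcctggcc
Irf8: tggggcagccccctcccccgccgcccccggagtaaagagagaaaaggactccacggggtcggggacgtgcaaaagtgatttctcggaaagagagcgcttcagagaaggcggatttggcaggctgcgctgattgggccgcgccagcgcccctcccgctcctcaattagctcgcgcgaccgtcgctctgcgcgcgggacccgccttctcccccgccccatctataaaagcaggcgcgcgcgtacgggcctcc
Elane: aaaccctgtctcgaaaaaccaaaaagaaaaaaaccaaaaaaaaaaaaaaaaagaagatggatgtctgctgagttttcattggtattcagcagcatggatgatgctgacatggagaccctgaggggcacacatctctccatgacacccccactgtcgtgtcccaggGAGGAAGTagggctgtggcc
Mpo: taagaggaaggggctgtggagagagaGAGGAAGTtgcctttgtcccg
Ctsg: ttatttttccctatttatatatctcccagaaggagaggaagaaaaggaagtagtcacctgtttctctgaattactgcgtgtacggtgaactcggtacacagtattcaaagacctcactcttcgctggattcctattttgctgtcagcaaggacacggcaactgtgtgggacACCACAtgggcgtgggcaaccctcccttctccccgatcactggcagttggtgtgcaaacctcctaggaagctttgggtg

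Open sites away from the starts are shown next, because they were the highest sites away from starts at Cebpe and Gfi1 and, at Cebpa, the site where a myeloid enhancer is known. They are the central 200 bases, plus strand, of a site 37 kb downstream of Cebpa (chr7:35156651-35156850), a site 6.2 kb downstream of Cebpe (chr14:54705901-54706100) and a site 33.5 kb upstream of Gfi1 (chr5:107759201-107759400). The Cebpa and Gfi1 sites each held 2 RUNX matches, and the Cebpe site held 2 C/EBP and 2 GATA matches. Over 90654 open sites more than 1 kb from any start, 18.3% held a RUNX, 7.92% a C/EBP and 9.39% a GATA match in windows of this length. The shares were 3.17%, 0.467% and 7.51% for the PU.1, other ETS and AP-1 letters, which none of these 3 sites held.
Cebpa site: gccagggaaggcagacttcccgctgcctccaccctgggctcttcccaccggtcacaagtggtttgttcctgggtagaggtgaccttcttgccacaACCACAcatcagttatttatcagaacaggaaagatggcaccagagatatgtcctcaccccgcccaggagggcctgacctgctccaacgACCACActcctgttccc
Cebpe site: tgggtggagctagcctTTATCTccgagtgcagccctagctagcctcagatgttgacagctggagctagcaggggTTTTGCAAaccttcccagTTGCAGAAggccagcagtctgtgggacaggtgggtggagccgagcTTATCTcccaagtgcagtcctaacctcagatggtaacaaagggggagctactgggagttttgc
Gfi1 site: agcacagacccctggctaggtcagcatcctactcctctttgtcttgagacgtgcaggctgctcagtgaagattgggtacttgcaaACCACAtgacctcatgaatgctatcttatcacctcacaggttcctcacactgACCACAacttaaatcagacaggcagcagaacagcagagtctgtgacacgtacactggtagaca

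Most factor promoters carried more fragments than the typical gene, and the granule promoters far fewer. Of the 10 members, 6 had more promoter fragments than the median protein-coding gene (400 fragments, 9.67% of cells), and all 6 were factor genes. The promoters have equal length, so their fragment counts can be set side by side. Cebpb, a C/EBP gene induced by inflammatory signals, had 1635 promoter fragments in 32.7% of cells (31.2 to 34.3). Cebpd, its close relative, had 1262 fragments in 27.3% of cells (25.9 to 28.8). Cebpa had 1253 fragments in 26.6% of cells (25.2 to 28.1). These 3 C/EBP promoters stood at percentiles 85.7, 77.7 and 77.4 of all genes, and the counts of Cebpd and Cebpa did not differ beyond counting error (ratio 1.01, 0.931 to 1.09).

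Irf8 had 864 promoter fragments in 19.7% of cells (18.4 to 21.0). Spi1 had 523 fragments in 12.7% of cells (11.6 to 13.8), and Gfi1, a zinc-finger repressor, had 486 in 11.4% (10.4 to 12.5). Spi1 and Gfi1 lay just above the median gene, at percentiles 55.1 and 53.6, and did not differ from each other beyond counting error (ratio 1.08, 0.949 to 1.22). With promoters of 500 bp on each side, the number of members above the median fell from 6 to 4, with Spi1 then in 5.46% and Gfi1 in 6.56% of cells. Cebpe, the C/EBP gene of late granulocyte development, stood apart from the other factor genes with 145 fragments in 3.72% of cells (3.13 to 4.39).

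Elane, which encodes neutrophil elastase, had 85 promoter fragments in 2.23% of cells (1.78 to 2.77). Mpo, which encodes myeloperoxidase, had 46 in 1.21% (0.882 to 1.62). Ctsg, which encodes cathepsin G, had 6 in 0.165% (0.0607 to 0.360), with no cell holding more than 1. All 3 granule promoters were below Cebpe, but above the median olfactory receptor gene, which had 1 promoter fragment and served as a closed reference of 1133 genes. With promoters of 2 kb on each side, Elane was in 8.21% of cells and above Cebpe, at 7.44%.

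Counted per kb of gene region, the order changed in part. The regions ran from 3.5 kb at Cebpb to 35.4 kb at Spi1. Promoter fragments were 87.9% of the gene-region count at Cebpb and 16.1% at Spi1, so per-kb values also depend on gene length. Cebpb had 531 fragments per kb (507 to 556), Cebpa 318 (302 to 335), Cebpd 272 (259 to 286) and Gfi1 126 (119 to 132), against a median of 31.6 over all genes. Spi1 had 92.1 (89.0 to 95.3), Elane 84.4 (75.6 to 93.9), Cebpe 76.8 (68.3 to 86.1) and Irf8 73.3 (69.8 to 76.9). Each neighbour pair in this run from Spi1 to Irf8 did not differ beyond counting error. Mpo had 17.5 (15.3 to 20) and Ctsg 2.34 (1.17 to 4.19), while the median olfactory receptor gene had 0.681. Elane was thus above the median gene per kb and below it at the promoter. Gene regions of Cebpb, Cebpd and Irf8 overlapped those of Tmem189, Spidr and Gm20388, and fragments there cannot be told apart.

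**Figure D1:**
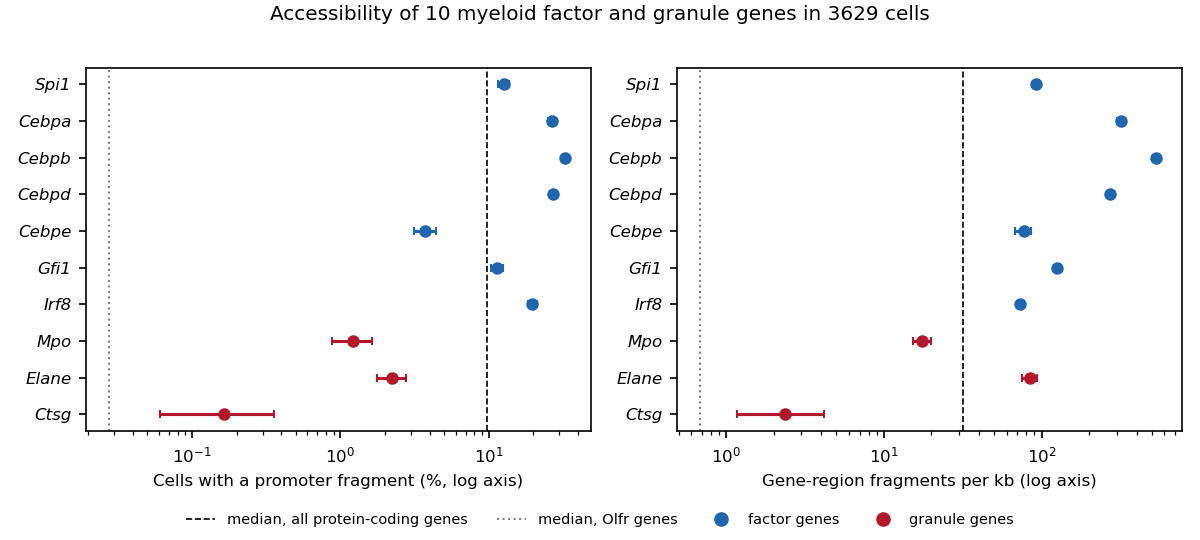
Share of cells with a promoter fragment (left, percent, log axis) and gene-region fragments per kb (right, log axis) for the 10 genes in 3629 cells. Bars are exact 95% intervals for counting error, the dashed line is the median of all protein-coding genes and the dotted line that of the olfactory receptor genes; the factor genes (blue) lie to the right of Mpo and Ctsg in both panels.

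Lists of related genes placed these levels, and their per-kb values also depend on gene length. Of 20 further myeloid regulator genes, 18 were above the median promoter, against 6 of 7 member factors. The list median was 1515 fragments, against 864 for the member factors. Not all genes of this list encode transcription factors (Trib1 and Trib2 do not). The highest of that list per kb was Jun, an AP-1 gene, at 1026, and the lowest was Spic at 12.8. Of 22 further granule and other myeloid genes, 3 were above the median promoter, with a list median of 41.5 against 46 for Mpo, Elane and Ctsg. Not all genes of this list encode granule proteins (Clec12a, Igsf6 and Ms4a3 do not). The highest per kb was Prtn3, which encodes proteinase 3 and neighbours Elane, at 189, and the lowest was Chil3 at 1.14. Of 11 myeloid receptor genes, 3 were above the median promoter, with Csf2ra highest at 703 per kb and Ccr2 lowest at 8.97. The list medians were 279 promoter fragments for 7 erythroid genes and 615 for 6 megakaryocyte genes. By the same rule, the highest and lowest genes per kb were Hoxa9 (254) and Fgd5 (25.4) for stem cells, Vpreb1 (141) and Ms4a1 (2.21) for B cells, Cd3d (208) and Cd8a (1.94) for T cells, Klf1 (328) and Hba-a1 (6.77) for erythroid cells, and Itga2b (263) and Ppbp (11.3) for megakaryocytes.

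The shape of the signal at the start also differed between members. At Irf8, Cebpa and Cebpd the highest 50-bp bin of transposase insertions was centred 75 bases upstream of the start, with 285, 233 and 238 insertions. At Cebpb it was centred 25 bases upstream, with 289. At Spi1 the kb upstream of the start held 93 insertions and the kb downstream 786, and the highest bin lay 625 bases downstream. Gfi1 had a broad profile with 306 insertions in the kb upstream and 539 in the kb downstream. At Elane, 357 insertions lay between 2 kb and 1 kb upstream, against 78 in the kb next to the start. Cebpe showed the same tilt, with 221 against 177. Mpo had 43 insertions in the kb upstream and Ctsg had 4.

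Short fragments mark stretches free of nucleosomes. Fragments under 120 bases were 39.8% of promoter fragments at Irf8, 30.7% at Cebpb, 27.1% at Cebpa and 26.1% at Cebpd, against 28.8% of all nuclear fragments. They were 22% at Spi1, 15.2% at Gfi1 and 10.3% at Cebpe. At Elane they were 16.5%, at Mpo 13.0%, and none of the 6 Ctsg fragments was short.

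**Figure D2:**
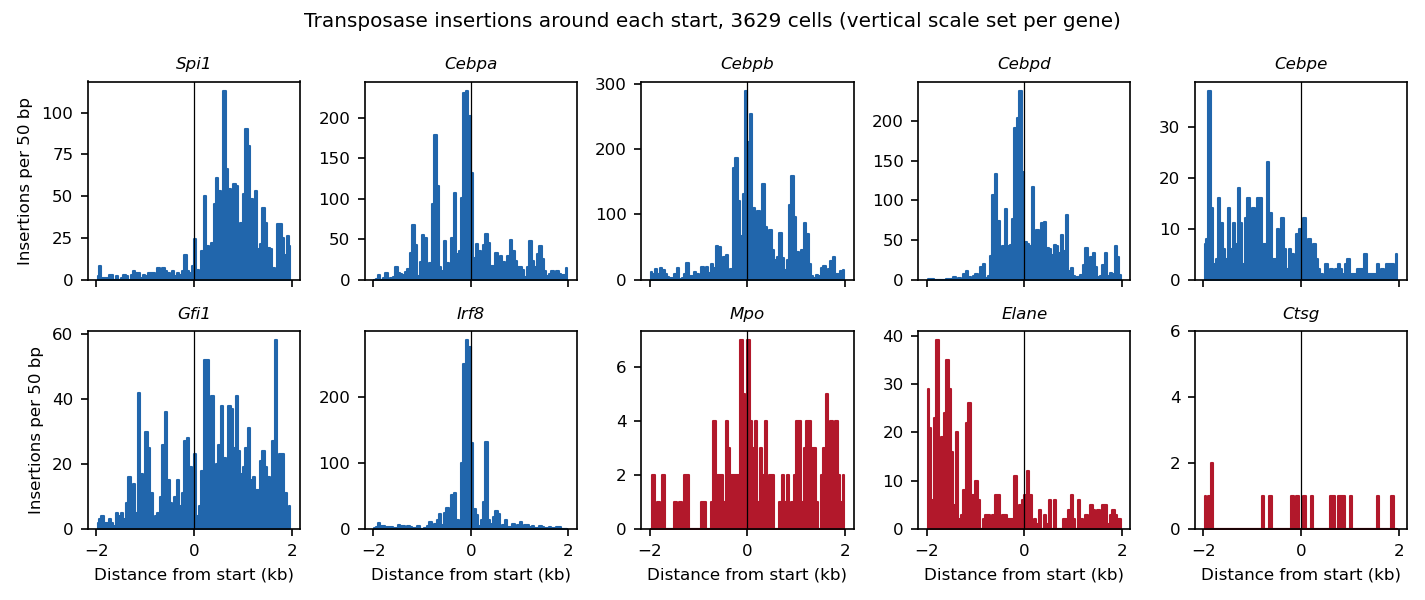
Transposase insertions per 50 bp within 2 kb of each start, in the direction of transcription, over 3629 cells; the vertical scale is set per gene. Irf8, Cebpa, Cebpb and Cebpd peak at the start, Spi1 peaks at 625 bases downstream, and Elane and Cebpe hold most insertions upstream of the start.

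Open sites were windows of 500 bp with at least 6 times the genome mean of 14.1 insertions. The 10 members had 252 such sites within 50 kb of their starts, of 127873 in the genome, and a site need not act on the member it lies near. Abutting windows over 1 strong peak counted separately, so these are numbers of windows and not of separate elements. The peak 33.5 kb upstream of Gfi1, for example, gave windows with 453, 2323 and 182 insertions. Elane had 66, Cebpb 34, Spi1 33, Mpo 30, Gfi1 24, Cebpa 21, Cebpe 17, Cebpd 14, Irf8 13 and Ctsg 0, against a median of 10 over all genes. Of the 66 sites around Elane, 18 lay within 1 kb of the start of another gene. The counts of sites for Mpo and Elane ranked high, at percentiles 91.5 and 99.9, although neither had a site within 1 kb of its own start.

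Spi1 has a longer annotated transcript that starts at position 91082390 of chromosome 2, upstream of the principal start. The highest site away from known starts of other genes lay 12.9 kb upstream of the principal start and within 1 kb of that upstream start, in an intron (chr2:91082901-91083400). It had 1127 insertions and was seen in 16.9% of cells (15.7 to 18.2), against 571 insertions and 10.0% (9.07 to 11.1) at the highest site by the principal start. Further windows with 104 to 337 insertions lay from 14.1 to 11.6 kb upstream, some of them beside the site with 1127 insertions. An upstream enhancer of Spi1 is known in this part of the locus.

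At Cebpa the promoter site had 1147 insertions in 17.8% of cells (16.6 to 19.1). Distal sites lay 32.7 kb upstream (649 insertions, 10.0% of cells), 7.8 kb downstream (581, 9.51%) and 37 kb downstream (499, 7.69%), all intergenic. Short fragments made up 44.5%, 27.9% and 39.2% of their fragments. The last of these lies where a myeloid enhancer of Cebpa is known, and its sequence is printed above.

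Cebpb had 1587 insertions at its promoter site and 1028 at a site 8.7 kb upstream, in an intron of Tmem189, seen in 15.3% of cells (14.2 to 16.5). Cebpd had 7 sites away from any principal start, against 17 for Cebpa and 27 for Cebpb. Its promoter site had 1138 insertions, and its highest site outside a start region had 215 and lay 1.5 kb downstream of the start, in the exon of the gene. Cebpe showed the reverse. Its promoter site had 136 insertions, while the site 6.2 kb downstream had 1678 and was seen in 21.9% of cells (20.5 to 23.3), with 52.1% short fragments.

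Gfi1 also had its highest signal away from the start. The site 33.5 kb upstream, in an intron of Evi5, had 2323 insertions and was seen in 29.5% of cells (28.1 to 31.1). A site 37.6 kb downstream had 1189 insertions in 16.4% of cells (15.2 to 17.6), against a highest promoter site of 312. Irf8 had 1212 insertions at its promoter site and 693 at a site 20.9 kb upstream, in an intron of Gm20388, seen in 9.81% of cells (8.86 to 10.8).

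Around Mpo the highest sites lay 44.1 kb upstream (2386 insertions, 31.6% of cells) and 38.0 kb upstream (1520, 21.3%), and the start of Tspoap1 was nearer to both. The nearest downstream site, in an intron of Mpo at 9.2 kb, had 99 insertions in 1.65% of cells. At Elane, sites 2.2 and 1.7 kb upstream had 410 and 241 insertions, in 7.44% and 4.93% of cells. A site 8.2 kb upstream, in an intron of Prtn3, had 942 insertions in 14.1% of cells (13.0 to 15.3), and one 3.3 kb downstream had 651 in 9.51%. Around Ctsg, which lies among mast cell protease and granzyme genes, no window passed, and at 3 times the genome mean 1 did, with 44 insertions.

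**Figure D3:**
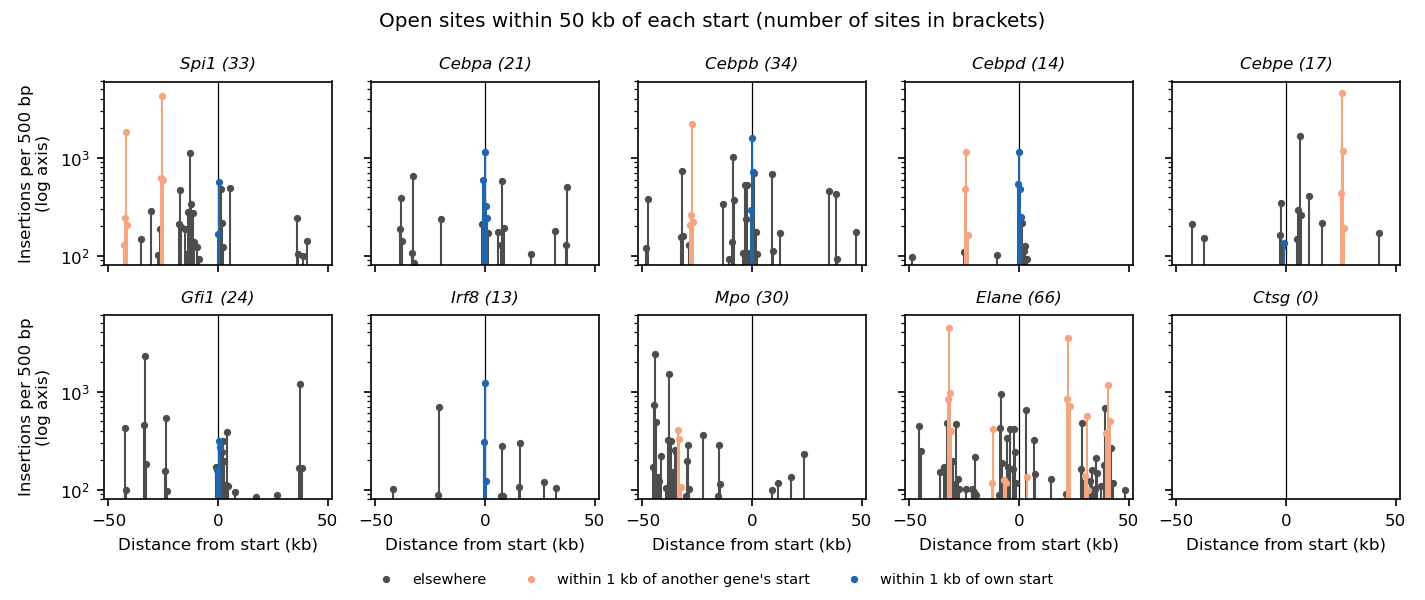
Open sites within 50 kb of each start: distance from the start in kb (upstream negative) against insertions per 500 bp (log axis), with the number of sites in brackets. Blue points lie within 1 kb of the member's own start, orange points within 1 kb of another gene's start and grey points elsewhere; Spi1, Cebpe and Gfi1 have a grey point above their highest blue point, and Ctsg has no site.

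The question of whether the cells shared member openness was put to the promoters after each cell was thinned to 6000 nuclear fragments, which left out 244 shallower cells. Of 3385 cells, 38.6% (37.0 to 40.3) had no member promoter fragment, 40.8% (39.1 to 42.4) had 1 member, and 20.6% (19.3 to 22) had 2 or more. A single cell had 5. A granule promoter was seen in 67 cells (1.98%, 1.54 to 2.51), and no cell had 2 of them, which allows a share of up to 0.109%. Without thinning, 1 of 3629 cells had 2, Mpo and Elane. Alone, Elane was seen in 1.09%, Mpo in 0.739% and Ctsg in 0.148% of the thinned cells. These shares are too low for such counts to show whether the granule promoters open together or apart. The shares that independent promoters would give were not computed. Without thinning, 40.8% of 3629 cells had 2 or more members.

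Over 21 pairs of factor genes, the share open at the second gene was higher in cells open at the first in 10 pairs, with differences from -4.45 to 4.86 percentage points and a median of -0.04. Gfi1 was open in 10.9% of 258 cells open at Spi1 (7.33 to 15.3) and in 6.94% of 3127 others (6.07 to 7.89), and without thinning in 14.3% and 11.0%. Cebpb was open in 26.0% of the cells open at Spi1 (20.7 to 31.8) and in 21.1% of the others (19.7 to 22.6), and without thinning in 33.9% and 32.5%. Cebpa was open in 15.1% of the Spi1-open cells (11.0 to 20.1) and in 16.5% of the others (15.2 to 17.8), and without thinning the direction turned, at 27.0% and 26.5%. Gfi1 and Irf8 were open together in 24 cells: 9.80% of 245 Gfi1-open cells (6.38 to 14.2) had an Irf8 fragment, against 12.3% (11.2 to 13.5) of the others. Here too it turned without thinning, with 23.9% of 414 Gfi1-open cells against 19.2% of 3215 others.

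Across the 3629 cells, the genes whose gene-region counts were most like those of Spi1, by rank correlation after removal of nuclear fragments, were Otud4 (0.0774), Hap1 (0.0605) and Katnal2 (0.0587) among 11066 genes. For Cebpa they were Uvrag (0.0661), Ap1s3 (0.0596) and Lin9 (0.0560) among 11072. The correlation of Spi1 with Cebpa was 0.0153. All points share 1 library and its depth, and correlations this weak in sparse counts are no finding.

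Antibody counts were then used to ask whether member chromatin moved with surface proteins. For each of the 12 antibodies, the cells above and below the whole-number counts nearest to the highest and lowest 25% were compared. For 7 antibodies this set cells with a tag against cells without. Ratios are on the log2 scale, with 0.5 added to each count and scaled by nuclear fragments, and a pair was counted as past the fold beyond 0.32 on this scale in either direction. Of 120 pairs of member and antibody, 97 had 200 or more gene-region fragments and 12 were past the fold (12.4%), against 7.57% over all genes. With 1000 or more fragments, 2 of 55 pairs were past the fold (3.64%, against 4.08%), and with 200 to under 1000 it was 10 of 42 (23.8%, against 12.9%). Mpo, Cebpe and Elane had 225, 293 and 335 gene-region fragments in all cells, near the floor of that range. The shares over all genes were not matched to the members by antibody or by fragment count within a range. These differences in share are therefore no result about the members. Over promoters it was 11 of 71 pairs (15.5%, against 10.8%), and over the open sites 1 of 108 (0.926%, against 4.41%). With antibody counts as centred log ratios, 1 of 72 gene-region pairs was past the fold (1.39%, against 2.41%). With residuals on the other antibodies it was 5 of 72 (6.94%, against 2.8%).

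Among the members with 200 or more fragments, Cebpd had the widest difference for CD274 (PD-L1), an immune checkpoint ligand. Its promoter had 370 fragments in 937 CD274-high cells (27 or more tags) and 240 in 877 CD274-low cells (12 or fewer), which is 35.8 and 25.7 fragments per 1000000 nuclear fragments (FPM). The log2 ratio was 0.48 (0.24 to 0.72) at the promoter, 0.36 (0.15 to 0.57) over the gene region and 0.19 (0.03 to 0.35) over its open sites. It was the 1 of 6 members past the fold in the gene region and in the promoter, against 4.26% and 5.53% of all genes. Counts were also divided into 4 ranges for CD274, CD61 and CD357. The lowest and highest range of each antibody are its low and high groups, so only the middle ranges add values. In the 4 ranges of CD274 from low to high, the Cebpd promoter had 25.7 (22.5 to 29.1), 33.2 (29.8 to 36.9), 36.5 (32.5 to 40.8) and 35.8 (32.2 to 39.6) FPM. The lowest range stood below the other 3, which overlapped. The tag total over the 12 antibodies, CD274 included, was also higher in CD274-high cells (median 46 against 17). Median nuclear fragments were 10296 and 10472, and the part of the tag total in the result was not tested. With antibody counts as centred log ratios, or as residuals on the other antibodies, the gene-region ratio was 0.29 and no longer past the fold.

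For CD61 (integrin beta 3), a platelet and megakaryocyte protein, Cebpd and Irf8 were both higher in the 779 CD61-high cells than in the 727 CD61-low cells. The Cebpd promoter had 36.1 against 28.4 FPM (0.34, 0.09 to 0.60), and that of Irf8 23.8 against 18.6 (0.35, 0.04 to 0.68). These were 2 of 5 members past the fold at promoters, against 4.76% of all genes, and 0 of 6 over gene regions, against 3.39%. Over gene regions the ratios were 0.29 (0.07 to 0.52) for Cebpd and 0.26 (0.03 to 0.49) for Irf8. Cebpe, with under 200 fragments and so not counted, went the other way over the gene region, with 48 fragments in CD61-high and 70 in CD61-low cells, or 5.51 and 9.29 FPM (-0.75, -1.31 to -0.20). In the 4 CD61 ranges the Irf8 promoter had 18.6, 23.0, 23.6 and 23.8 FPM. The Cebpd promoter had 28.4, 34.8, 30.6 and 36.1 FPM, with no steady order. Median tag totals, CD61 included, were 36 and 22 in these groups, and their part was not tested. These promoter ratios were not computed again with the other antibody scales.

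Among the members with 200 or more fragments, Gfi1 had the widest difference for CD357 (GITR), a receptor of the tumour necrosis factor family. Its promoter had 164 fragments in 968 CD357-high cells and 127 in 1200 CD357-low cells, or 15.4 and 10.1 FPM, a log2 ratio of 0.60 (0.25 to 0.94). The 4 ranges gave 10.1 (8.45 to 12.1), 12 (10.1 to 14.3), 14.6 (11.2 to 18.8) and 15.4 (13.1 to 17.9). Over the gene region and the open sites the ratios were 0.21 (0.02 to 0.40) and 0.13 (0.02 to 0.24). At promoters 1 of 6 members was past the fold, against 2.9% of all genes, and over gene regions 0 of 7, against 2.04%. Cebpe, with under 200 fragments, again had a wider ratio over the gene region, with 68 and 122 fragments (-0.61, -1.06 to -0.17). Median tag totals, CD357 included, were 36 and 25, and their part was not tested. The Gfi1 promoter ratio was not computed again with the other antibody scales.

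Spi1 and Cebpa showed no ratio past the fold for these 3 antibodies. For Spi1 the gene-region ratios were 0.08 (-0.06 to 0.22) for CD274, 0.01 (-0.15 to 0.16) for CD61 and -0.14 (-0.27 to -0.01) for CD357. For Cebpa they were -0.04 (-0.24 to 0.17), -0.16 (-0.39 to 0.07) and -0.08 (-0.27 to 0.11). Among granule genes, Mpo had 100 fragments in 1325 cells with a P2X7R tag and 125 in 2304 without, or 6.95 and 5.19 FPM (0.42, 0.03 to 0.81). Elane had 16 fragments in 281 cells with a CD68 tag and 319 in 3348 without (-0.73, -1.60 to -0.05), and the ratio was no longer past the fold with the centred log ratio (-0.24), residuals (-0.21) or at least 50 tags (-0.24). Ctsg had 11 gene-region fragments in all cells, too few for any of these comparisons. Gfi1 had 71 fragments in 225 cells with a CD183 tag and 1358 in 3404 without, or 29.0 and 37.7 FPM (-0.37, -0.74 to -0.03), and with residuals this ratio turned to 0.0358. The other 8 pairs past the fold had intervals that included 0, and the share of all genes past the fold was 28.8% for CD163, 25.6% for CD206, 9.5% for CD183, 7.44% for CD68, 1.54% for CD106 and 1.21% for P2X7R. They were Cebpa with CD163 (0.44, -0.08 to 0.89), Cebpe with CD68, CD106 and CD183 (-0.44, -0.34 and -0.39), Mpo with CD163 and CD183 (0.34 and 0.39), and Elane with CD183 and CD206 (-0.59 and -0.46). Thus 4 of the 12 ratios past the fold left out 0, and for Elane, Gfi1 and Mpo these rested on 16, 71 and 100 fragments in the tagged cells. Over all 97 pairs, within the fold or past it, 13 intervals left out 0. The share of such intervals over all genes was not computed, so these counts are no result about the members.

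**Figure D4:**
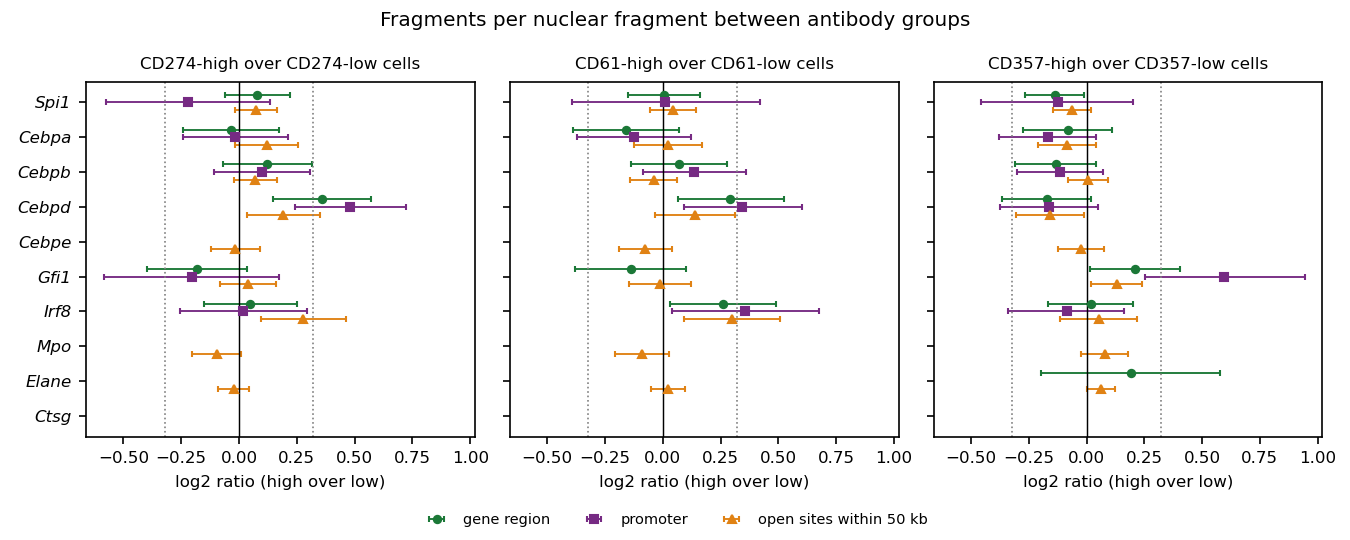
Log2 ratio of fragments per nuclear fragment between antibody-high and antibody-low cells for CD274, CD61 and CD357, for gene regions (circles), promoters (squares) and open sites within 50 kb (triangles) with 200 or more fragments. Bars are exact 95% intervals for counting error and dotted lines mark 0.32 in either direction; Cebpd lies to the right for CD274 and CD61, Irf8 for CD61 and Gfi1 for CD357.

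**Figure D5:**
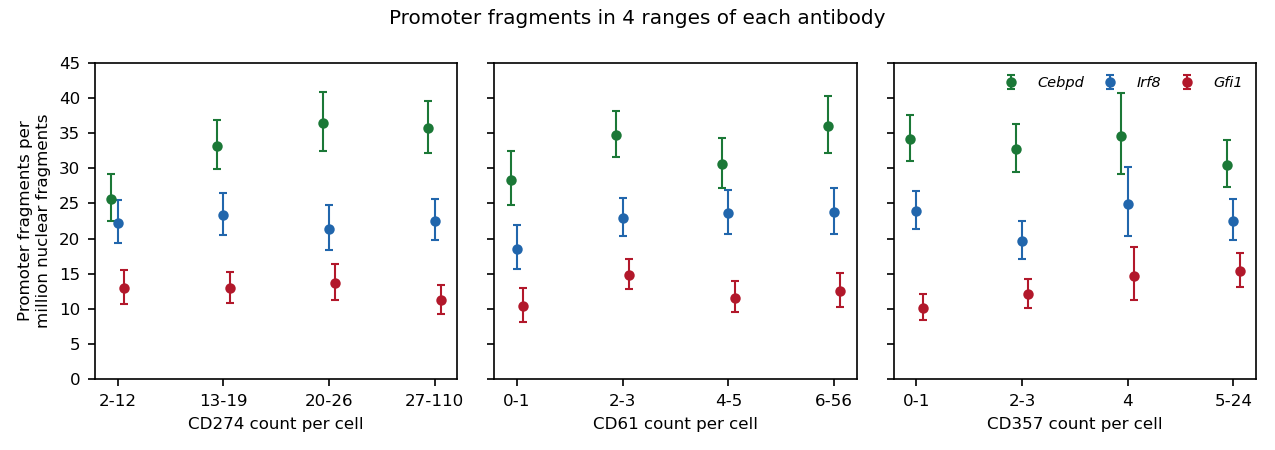
Promoter fragments per 1000000 nuclear fragments (FPM) for Cebpd, Irf8 and Gfi1 in 4 ranges of CD274, CD61 and CD357 counts per cell, with exact 95% Poisson intervals. The lowest CD274 range has the fewest Cebpd fragments (25.7), and Gfi1 goes from 10.1 to 15.4 over the CD357 ranges.

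The study's surface gates enrich for platelet-biased (PLT) or multilineage (MUL) stem cells. Rebuilt at the medians, the PLT gate (CD61 and CD274 above, CD357 and CD27 at or below) held 342 cells and the MUL gate, its opposite, 61. Only Spi1 and Cebpb had 200 or more gene-region fragments over both gates, and 0 of these 2 were past the fold, against 20% of all genes. Spi1 had 83.3 and 70.0 FPM in PLT-gated and MUL-gated cells (0.24, -0.22 to 0.75), and Cebpb 54.2 and 45 (0.25, -0.32 to 0.91). The Spi1 ratio changed sign to -0.48 with at least 50 tags (43 fragments), -0.35 at the promoter (58 fragments) and -0.0394 with residuals on the other antibodies. For Cebpa, with 124 and 26 fragments, the values were 35.0 and 43.3 FPM (-0.33, -0.93 to 0.36). Over open sites, 2 of 9 members were past the fold, against 13.8% of all genes. These were Cebpd, at 83.6 and 56.6 FPM (0.54, 0.05 to 1.12), and Gfi1, at 117 and 148 (-0.35, -0.68 to 0.00). With 61 MUL-gated cells, differences of the size seen at Spi1 and Cebpb were not detectable at this depth. With gates set on centred log ratios, 2 of 5 members were past the fold over gene regions, against 8.43% of all genes. With residuals on the other antibodies it was 2 of 4, against 8.97%.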

How the data were processed

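One pool gave ATAC, gene expression and antibody libraries. The authors ran Cell Ranger ARC 2.0.2 on mm10 (per the labels and file headers) to call cells, collapse duplicates to 1 line per fragment and shift ends for transposase binding. What they deposited are raw counts of fragments and UMIs per barcode, and of antibody tags. CITE-seq-Count made the tag counts (version not given in the sources). Tags that matched no antibody were not used.

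Genes and principal starts came from GENCODE M21, and sequences from RefSeq (GRCm38.p6). Cells with under 10 tags (95) were left out, and doublets were not removed (an alternative dropped 267 cells whose fragments overlapped more often than the average cell predicts). A fragment was counted where it overlapped a region. Open sites were non-overlapping 500-bp windows of pooled insertions, taken from the highest down to the threshold. The flanks of a strong site could thus count as further sites. Intervals were exact Poisson, binomial (Clopper-Pearson) and conditional binomial, checked on simulated counts. Groups were set by raw antibody counts. With 1 pool, no test was run. Named genes were the 10 members, the 3 genes most like Spi1 and Cebpa across cells (1000 or more fragments, over 1 Mb away) and the highest and lowest gene per list by fragments per kb; the antibodies shown in 4 ranges, the sites and the motifs were chosen after their values were seen. The members and lists were chosen with earlier results of these data known. Alternatives were other tag and depth filters, cells without excess overlaps, other promoter widths, insertions, thinning, scaling by promoter fragments, other antibody scales and splits, and other site thresholds. RNA was left out. Software was Python 3.11.15 with numpy 2.4.6, pandas 2.3.3, scipy 1.17.1, numba 0.67.0 and matplotlib 3.10.9.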

Additional observations from a re-analysis of the deposited data

Results flagged for a closer look

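The 645 called cells with no antibody counts entered none of the comparisons. They held 1282313 nuclear fragments, so member fragments there are no result about the members. In gene-region fragments, Spi1 had 93, Cebpb 54, Cebpa 53, Cebpd 52, Gfi1 49, Irf8 44, Elane 12, Cebpe 9 and Mpo 6, and Ctsg had 0. These cells were shallow, with a median of 1805 nuclear fragments. Spi1 had 72.5 fragments per 1000000 nuclear fragments (58.5 to 88.8) against 84.6 in the 3629 cells kept, and Mpo 4.68 (1.72 to 10.2) against 5.84. No group of samples was large enough to be searched for a sample far from the others.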

How the results depend on the processing

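No paired analysis was possible because 1 pool of cells gave 1 library of each kind. The number of members above the median promoter was 6, and 4 with promoters of 500 bp on each side. Open sites numbered 402 at 3 times and 144 at 12 times the genome mean, against 252. Cells with 2 or more open members were 40.8% without thinning, against 20.6%. Pairs of member and antibody past the fold numbered 12 of 97 (7.57% over all genes), and 6 of 19 with at least 50 tags (24.9% over all genes), 1 of 72 with the centred log ratio (2.41%) and 5 of 72 with residuals on the other antibodies (2.8%). Between gates, 0 of 2 (20% over all genes) became 2 of 5 with the centred log ratio (8.43%) and 2 of 4 with residuals (8.97%), while no member reached 200 fragments with at least 50 tags or with promoters only. The cause of these changes was not tested.

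Cebpd by CD274 ranged from 0.24 to 0.48 over its alternatives. Among the 12 pairs past the fold, these changed sign. Cebpe by CD68 (-0.44) became 0.21 with at least 50 tags, 0.27 with the centred log ratio and 0.17 with residuals. Cebpe by CD183 (-0.39) became 0.53, 0.44 and 0.32 under the same settings. Mpo by CD163 (0.34) became -0.0511 without cells with excess overlaps, -0.15 without the deepest 5% of cells and -0.13 with the centred log ratio. Mpo by CD183 (0.39) became -0.076 with the centred log ratio, and Gfi1 by CD183 (-0.37) became 0.0358 with residuals. The other settings run kept the sign of these 12 ratios, but with the centred log ratio Cebpa by CD163 went from 0.44 to 0.00155, Elane by CD206 from -0.46 to -0.0144 and Gfi1 by CD183 from -0.37 to -0.0245.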
